A study of Mus musculus with 32 samples.

Results

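The transcriptional response of re-sorted Epcam+ lung epithelial cells to recombinant osteoglycin (OGN) was compared with the response of the same cells to soluble factors (SFs) of lung fibroblasts, over 8 of the 32 libraries in the data. Members were chosen by label alone: the 4 OGN-treated and the 4 SF-treated Epcam+ libraries, 1 of each from every mouse, with no vehicle-treated library in the test. Primary CD45-/CD31-/Epcam+ cells from the lungs of untreated C57BL/6J mice, 8 to 14 weeks old, were mixed in equal numbers (300000 of each kind) with growth-arrested CCL206 cells (a line of mouse lung fibroblasts) and were embedded in Matrigel. All cultures therefore contained CCL206 fibroblasts and differed only in the agent, which was recombinant human OGN at 10 µg/mL or SFs at 30 µg/mL, and both were applied for 72 h before the cells were dissociated and separated on Epcam (CD326) microbeads. The SFs are a mixture of proteins from medium conditioned by MRC5 human lung fibroblasts, depleted of extracellular vesicles (EVs), so the doses are those of a single protein and of a mixture and are not matched. The study's proteomics detected OGN in the SFs as well as in the EVs, so the mixture is not free of OGN. The cultures with vehicle and with EVs, from the same 4 mice, are given below as levels. They also enter 2 alternative models, with 12 Epcam+ libraries (EVs added) or all 16. The CCL206 cells of the same OGN and SF cultures (8 further libraries) are used for 1 comparison between the populations.

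OGN, also called mimecan, is a small leucine-rich proteoglycan of the extracellular matrix that is made mainly by fibroblasts and other mesenchymal cells. Epcam is an adhesion protein of epithelial cells, and the Epcam+ cells of the mouse lung include alveolar type 2 (AT2) cells, which make surfactant, flat alveolar type 1 (AT1) cells, and club, ciliated and basal cells of the airways. Lung epithelium takes part in innate defence: on contact with microbial products or inflammatory cytokines it turns on, largely through the transcription factor NF-kB, genes for secreted antimicrobial and acute-phase proteins and for chemokines that attract neutrophils. These genes, together with those of matrix, metabolism and epithelial identity, are described in turn.

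Levels are given as CPM, the usual depth-scaled unit of RNA sequencing (raw counts over TMM-normalized library size, times a constant). It corrects for depth and not for gene length, so that CPM values are compared between libraries and not between genes. The 8 libraries held between 1805914 and 16299868 counts, and the shallowest and the deepest of them were both SF-treated (mouse 2 and mouse 1). Epcam itself had 277 ± 35.2 CPM with SFs and 312 ± 49.3 with OGN (SD, n = 4 mice each), against 9.99 in the SF-treated CCL206 libraries. The AT2 signature of the study (10 of 10 genes in the table) summed to between 12956 and 16036 CPM with SFs and between 12002 and 15647 with OGN. Markers of basal (7 of 12 in the table), club (5 of 12) and ciliated cells (5 of 10) were also measured, whereas of 14 macrophage and leukocyte markers only Lyz2, Cd74 and Cd68 were in the table, and of 10 endothelial and mesothelial markers only Msln. The defining leukocyte and endothelial genes Ptprc and Pecam1 were not among the genes analysed here. Fibroblast RNA was present: the 9 measured genes of the study's fibroblast signature summed to between 2602 and 3519 CPM in the SF-treated Epcam+ libraries and to between 2072 and 2596 in the OGN-treated ones, ranges that do not overlap, while in the CCL206 libraries with SFs they summed to between 11591 and 13135. In bulk RNA of this kind, fewer cells of a type and less RNA per cell cannot be told apart.

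Of 11551 genes tested, 77 differed between OGN and SFs in Epcam+ cells at an adjusted p under 0.05 (edgeR's quasi-likelihood test paired by mouse, Benjamini-Hochberg adjustment), which is 0.667% of the genes tested. In 40 genes (0.346%) the level was higher with OGN and in 37 (0.32%) it was lower. The difference exceeded 2-fold in 16 genes, 11 of them higher with OGN and 5 lower, and the median size of the difference among the 77 was 0.71 on the log2 scale, which is a property of genes chosen by this test. Over all genes tested the median log2 difference was -0.0032, and 1315 genes had an unadjusted p under 0.05, 622 higher and 693 lower. All 77 genes moved in the same direction in 4 of 4 mice, and in 63 of them the OGN-treated and SF-treated libraries did not overlap, which was the case in 732 (6.34%) of all genes tested. The number of genes depended on the mice included: without mouse 1 it was 20, without mouse 2 it was 25, without mouse 3 it was 16 and without mouse 4 it was 74. Without the pairing by mouse, 38 genes were called. Saa3, Cxcl5, Lcn2, Slpi, Pglyrp1, Chil1, Cxcl3, Cxcl12, Aox3, Ces1g, Timp3 and Aqp1 were called with each of the mice left out in turn.

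**Figure D1:**
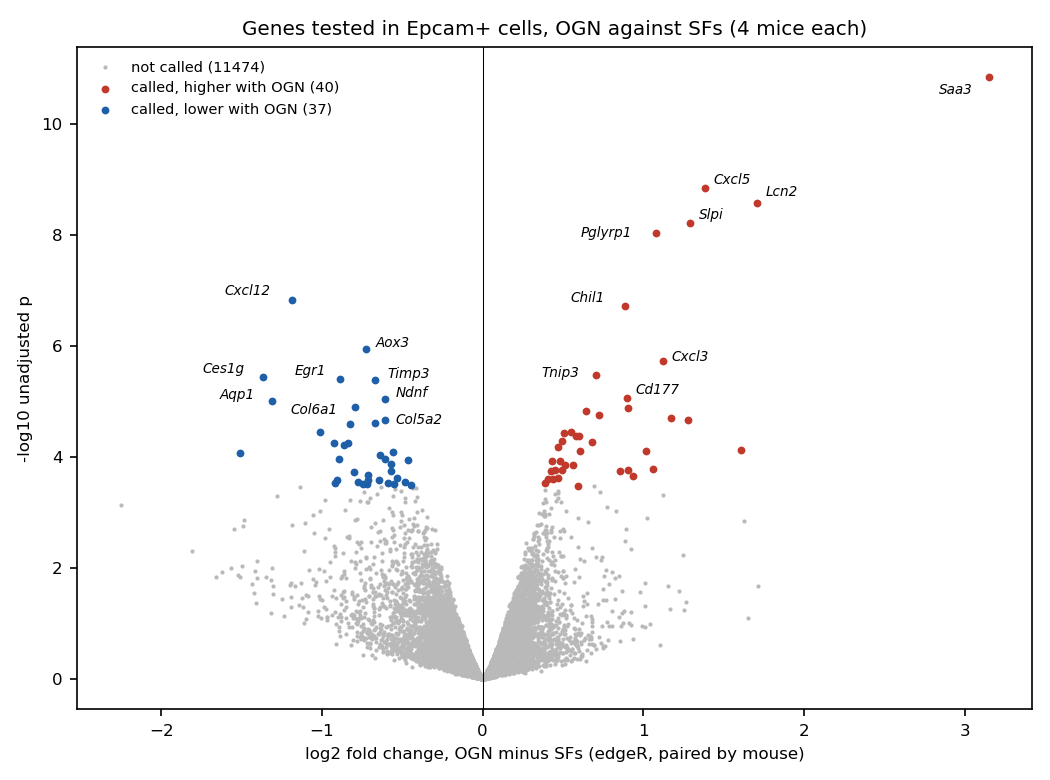
Each point is 1 of the 11551 genes tested in Epcam+ cells, placed by its log2 fold change (OGN minus SFs, horizontal axis) and by -log10 of its unadjusted p (vertical axis); red and blue points are the 40 genes called higher and the 37 called lower with OGN, grey points were not called, and the 9 genes with the smallest p in each direction are named. Saa3 lies farthest to the right, at 3.15.

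Saa3 and Lcn2, which differed most in size among the genes called, belong to the list of secreted acute-phase and antimicrobial proteins. Of 15 genes in that list 9 were tested, and 6 (Saa3, Lcn2, Slpi, Pglyrp1, Chil1 and Ltf) were higher with OGN while none was lower. The median log2 difference of the 9 was 0.89. Saa3 encodes serum amyloid A3, an acute-phase apolipoprotein made in inflamed tissues. Its level with SFs was 10.5, 11.7, 13.4 and 15.2 CPM in mice 1 to 4, and with OGN it was 124, 121, 104 and 99.8 CPM. Every OGN-treated library thus lay far above every SF-treated library, a difference of 8.87-fold (log2 difference 3.15 ± 0.15, SE, adjusted p = 1.66e-07). Lcn2 encodes lipocalin-2, which withholds iron from bacteria by binding their siderophores. It had 154, 104, 134 and 157 CPM with SFs and 503, 480, 463 and 366 CPM with OGN in mice 1 to 4, and the log2 difference was 1.71 ± 0.12 (SE, adjusted p = 1e-05). The groups did not overlap, although the highest SF-treated and the lowest OGN-treated library both came from mouse 4. Slpi, a secreted inhibitor of leukocyte proteases, had 56.2, 63.7, 54.6 and 63.7 CPM with SFs and 145, 132, 126 and 180 CPM with OGN (log2 difference 1.29 ± 0.10, SE, adjusted p = 1.8e-05). Pglyrp1, a secreted protein that recognizes bacterial peptidoglycan, had 68.7, 90.5, 93.8 and 83.3 CPM with SFs and 149, 195, 184 and 184 CPM with OGN (log2 difference 1.08 ± 0.09, SE, adjusted p = 2.12e-05). Both genes were higher with OGN in each of the 4 mice and without overlap. Chil1, a secreted chitinase-like protein of inflamed epithelium and macrophages, was at 535, 428, 456 and 541 CPM with SFs and at 1022, 928, 815 and 860 CPM with OGN (log2 difference 0.89 ± 0.09, SE, adjusted p = 0.000313). Ltf, which encodes the iron-binding antimicrobial protein lactoferrin, was at 1014, 1410, 1696 and 1164 CPM with SFs and at 1317, 2089, 2071 and 2591 CPM with OGN. It was higher with OGN in every mouse but its groups overlapped, and its call was the weakest of the 6 (log2 difference 0.59 ± 0.12, SE, adjusted p = 0.0497). Ltf was not called by DESeq2 (adjusted p = 0.101), without the pairing by mouse (adjusted p = 0.21 in edgeR) or without mouse 1, 2 or 3. With each mouse left out in turn, 5 or 6 of the 9 genes of the list were called. The acute-phase glycoprotein gene Lrg1 and the lysozyme gene Lyz1, which stand in other lists or in none, were also higher (log2 differences 1.28 ± 0.20 and 0.90 ± 0.14, SE). Lyz1 has a close relative, Lyz2, and how reads that match both were counted is not given in the sources used here. Lyz2 had 301 ± 57.6 CPM with SFs and 355 ± 47.4 with OGN (SD, n = 4) and was not called (adjusted p = 0.412).

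**Figure D2:**
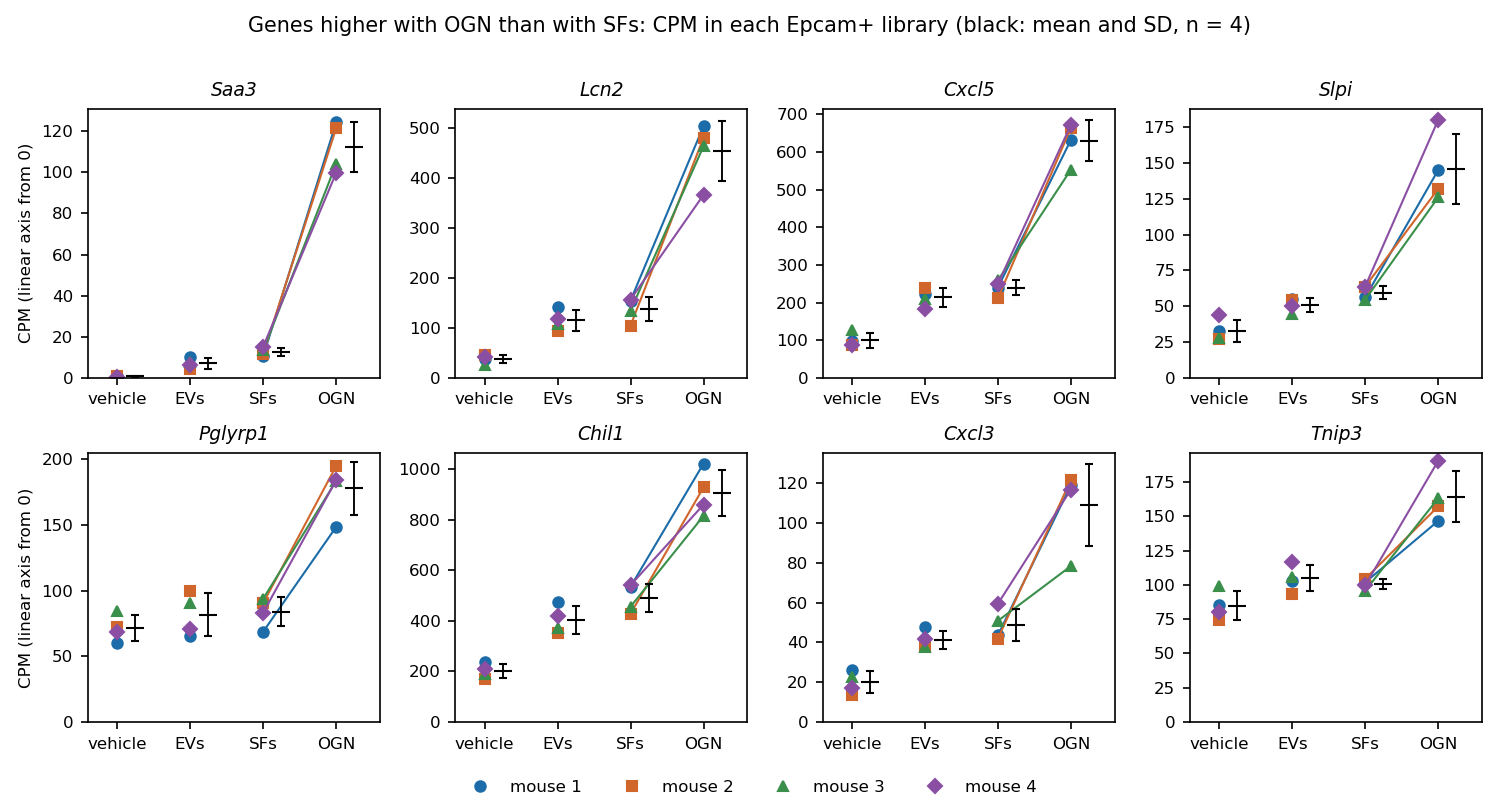
CPM (linear axis from 0) of 8 genes higher with OGN than with SFs in the Epcam+ libraries of 4 mice, by treatment; symbols mark the mouse, lines join the SF-treated and the OGN-treated library of a mouse, and black bars are mean and SD. For Saa3 the OGN-treated libraries lie between 99.8 and 124 CPM and the SF-treated ones between 10.5 and 15.2.

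Neutrophil-attracting chemokines and a negative regulator of NF-kB signalling were higher as well. Of 12 chemokine and cytokine genes tested, 3 (Cxcl5, Cxcl3 and Il33) were higher with OGN and 1 (Cx3cl1) was lower, with a median log2 difference of 0.36. The list does not hold Cxcl12, a chemokine gene that was lower and is described below. Cxcl5, an epithelial chemokine for neutrophils, was at 240, 211, 259 and 249 CPM with SFs and at 632, 664, 553 and 672 CPM with OGN in mice 1 to 4 (log2 difference 1.38 ± 0.10, SE, adjusted p = 8.33e-06). Cxcl3, of the same chemokine group, was at 43.5, 41.9, 50.8 and 59.3 CPM with SFs and at 119, 122, 78.3 and 117 CPM with OGN (log2 difference 1.12 ± 0.14, SE, adjusted p = 0.00235). In both genes all OGN-treated libraries lay above all SF-treated libraries, and mouse 3 had the lowest of the OGN values. Il33 encodes an alarmin stored in the nuclei of epithelial cells. It differed less, from 182 ± 9.53 to 241 ± 16.9 CPM (SD, n = 4, log2 difference 0.40 ± 0.08, SE, adjusted p = 0.0448). Cx3cl1, the ligand of the receptor on monocytes and lymphocytes, went the other way, from 96.9 ± 17.2 CPM with SFs to 63.7 ± 14.5 with OGN (SD, n = 4, log2 difference -0.61 ± 0.11, SE, adjusted p = 0.0291).

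Among 15 subunits and feedback inhibitors of NF-kB, Tnip3 alone was called. Its product binds the ubiquitin-editing enzyme A20 and restrains NF-kB. Tnip3 was at 102, 104, 95.8 and 99.7 CPM with SFs and at 147, 157, 163 and 191 CPM with OGN (log2 difference 0.71 ± 0.09, SE, adjusted p = 0.00369). The other members with the smallest p were Tnfaip3, which encodes A20, at a log2 difference of 0.29 ± 0.11, Nfkb1 at 0.20 ± 0.09 and Nfkbia, the gene of the inhibitor IκBα, at 0.20 ± 0.09 (SE, adjusted p = 0.325, 0.4 and 0.422). The median over the 15 genes was 0.19, and 10 of them had a positive value. Of 16 Toll-like and IL-1 receptor components only Cd14, the co-receptor for lipopolysaccharide, was called, at 305 ± 27.3 CPM with SFs and 451 ± 72.3 with OGN (SD, n = 4, log2 difference 0.55 ± 0.09, SE, adjusted p = 0.0151). Zc3h12a, which encodes an RNase that degrades cytokine transcripts, Il4ra, the receptor subunit for IL-4 and IL-13, and Ptges, the prostaglandin E synthase, were higher by 0.90, 0.43 and 0.48 on the log2 scale. Of 14 interferon-response genes, 12 genes of MHC class I presentation and 18 genes of protein folding in the endoplasmic reticulum, none was called by edgeR or by DESeq2. At an unadjusted p under 0.05 in edgeR, 3 interferon-response genes and 1 MHC class I gene were lower with OGN. In the folding list 3 genes were higher at that level.

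The promoters of the genes called were searched for a kB-like sequence, GGAANNNCC on either strand, in the RefSeq windows from 250 bases before to 50 bases after the annotated start (GRCm38.p6), which were found for 30 of the 40 genes higher with OGN and for 28 of the 37 lower. The sequence was present in 11 of the 30 (36.7%) and in 5 of the 28 (17.9%), against 25.5% of the tested genes with a window and 20.7% of all genes in the promoter table. Shown here are the windows of 4 of the genes with the smallest p that hold it, with the matches in capitals and everything else in lower case. The Saa3 window (chr7:46715627-46715926, minus strand) has 1 match, 187 bases before the start, the Pglyrp1 window (chr7:18884440-18884739, plus strand) has matches at -232 and -93, the Cxcl3 window (chr5:90785851-90786150, plus strand) has matches at -72 and -49, and the Tnip3 window (chr6:65590148-65590447, plus strand) has 1 at -53.
Saa3: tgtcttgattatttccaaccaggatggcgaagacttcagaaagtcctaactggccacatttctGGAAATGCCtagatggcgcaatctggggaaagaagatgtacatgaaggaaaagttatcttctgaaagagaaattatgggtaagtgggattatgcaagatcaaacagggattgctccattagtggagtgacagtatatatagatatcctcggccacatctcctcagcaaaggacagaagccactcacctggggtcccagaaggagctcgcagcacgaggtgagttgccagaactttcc
Pglyrp1: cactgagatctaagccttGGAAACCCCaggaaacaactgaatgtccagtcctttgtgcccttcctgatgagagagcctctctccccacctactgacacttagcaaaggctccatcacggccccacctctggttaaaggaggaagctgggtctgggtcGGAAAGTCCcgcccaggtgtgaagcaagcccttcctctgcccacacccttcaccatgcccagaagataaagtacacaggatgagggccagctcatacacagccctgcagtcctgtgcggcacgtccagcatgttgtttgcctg
Cxcl3: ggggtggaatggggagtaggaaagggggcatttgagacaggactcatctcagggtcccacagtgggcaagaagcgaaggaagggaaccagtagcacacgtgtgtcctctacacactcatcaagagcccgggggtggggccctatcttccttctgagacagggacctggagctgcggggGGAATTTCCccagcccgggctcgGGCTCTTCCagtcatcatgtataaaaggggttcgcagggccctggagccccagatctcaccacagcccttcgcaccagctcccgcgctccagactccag
Tnip3: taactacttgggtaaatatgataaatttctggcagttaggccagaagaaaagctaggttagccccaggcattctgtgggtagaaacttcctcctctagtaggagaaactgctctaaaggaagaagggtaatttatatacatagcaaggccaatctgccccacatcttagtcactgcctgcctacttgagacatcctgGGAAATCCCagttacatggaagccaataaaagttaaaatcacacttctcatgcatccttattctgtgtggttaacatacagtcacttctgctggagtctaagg
The windows of Lcn2, Slpi, Chil1 and Ltf held no match, so that among the 6 called acute-phase and antimicrobial genes Saa3 and Pglyrp1 alone had the sequence. A letter match describes the window and not binding of a factor. A sequence like that of the C/EBP-ATF response element, TGATGNAA, was found in 2 of the 30 genes higher (6.67%) and in 0 of the 28 lower. It was present in 2.64% of the tested genes with a window and in 4.51% of all genes in the promoter table.

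Single genes of glucose and metal handling were among the 40. Of 16 glycolysis genes, 15 had a higher estimate with OGN and 12 an unadjusted p under 0.05, but only the glucose importer Slc2a1 and the lactate exporter Slc16a3 were called (median log2 difference of the list 0.33). Slc2a1 was at 180, 193, 165 and 173 CPM with SFs and at 260, 238, 250 and 256 CPM with OGN (log2 difference 0.50 ± 0.08, SE, adjusted p = 0.0151). Slc16a3 was at 25.5, 17.9, 24.6 and 10.5 CPM with SFs and at 36.8, 49.7, 43.3 and 18.1 CPM with OGN, higher in each mouse with overlapping groups (log2 difference 0.86 ± 0.17, SE, adjusted p = 0.0365). Pgk1 (0.39 ± 0.08) and Ldha (0.45 ± 0.10), enzymes of the lower part of the pathway, fell short of the threshold (SE, adjusted p = 0.0548 and 0.0591). The hypoxia-responsive genes Ndrg1, Bnip3 and Fam162a were higher by 0.58, 0.51 and 0.60 on the log2 scale. The count for glycolysis moved with the setting, from 0 genes without mouse 1, without mouse 3 or against a 1.2-fold change to 9 with the DESeq2 test and 10 with all 16 Epcam+ libraries in the edgeR model.

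Of 15 genes of iron transport and storage, Lcn2 and Steap4, which encodes a metalloreductase of iron and copper, were higher. Steap4 had 13 ± 4.13 CPM with SFs and 27.7 ± 3.08 with OGN (SD, n = 4, log2 difference 1.06 ± 0.20, SE, adjusted p = 0.0365). Cp, the gene of the ferroxidase ceruloplasmin, and the zinc importer Slc39a4 were higher by 0.45 and 0.42 on the log2 scale. Slc7a11, the cystine-glutamate exchanger that feeds glutathione synthesis, was at 184, 155, 182 and 183 CPM with SFs and at 261, 233, 253 and 230 CPM with OGN. Its groups did not overlap (log2 difference 0.47 ± 0.08, SE, adjusted p = 0.0208). Slc3a2, the heavy chain of the same exchanger, had 190 ± 13.2 CPM with SFs and 247 ± 31.3 with OGN (SD, n = 4) and was not called (log2 difference 0.37 ± 0.08, SE, adjusted p = 0.0706). The mitochondrial superoxide dismutase Sod2 had 111 ± 2.67 and 145 ± 12.4 CPM and was not called either (log2 difference 0.38 ± 0.09, SE, adjusted p = 0.0921). In the main edgeR test only Slc7a11 was called among 12 genes of cystine import and glutathione synthesis. Of 15 genes that detoxify superoxide and peroxide none was called there, with 2 higher and 2 lower at an unadjusted p under 0.05. DESeq2 called 2 of the 15 higher, as did edgeR with 12 or 16 Epcam+ libraries in the model.

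Other genes higher with OGN included Cd177, known as a surface protein of neutrophils, at 54.5, 18.4, 47.2 and 37 CPM with SFs and at 79, 38, 87.7 and 87.8 CPM with OGN, and Tgm1, a transglutaminase of stratified epithelia, with log2 differences of 0.90 ± 0.13 and 0.73 ± 0.11 (SE, adjusted p = 0.00706 and 0.01). Cd177 was lowest in mouse 2 under both agents. Slc26a4, the anion exchanger pendrin of airway epithelium, had 14.3 ± 6.34 CPM with SFs and 32.3 ± 8.27 with OGN (SD, n = 4, log2 difference 1.17 ± 0.18, SE, adjusted p = 0.011). Vnn3 had the next largest difference after Saa3 and Lcn2 among the 40 genes, 1.61 ± 0.29 (SE, adjusted p = 0.0233), from as few as 3 counts in the shallowest library. It was not called by DESeq2 (adjusted p = 0.085) or without mouse 1 or 3. Further genes of the 40 were Hmgn5, Anp32b, Gm20186, Fabp5, Adamts7, Ccn1, Ly6a, Tm4sf1, Plxnb1 and Dcn. Dcn encodes decorin, which like OGN is a small leucine-rich proteoglycan, and belongs to the fibroblast signature. It was the only member of that signature called higher, at 151, 172, 137 and 152 CPM with SFs and 289, 245, 223 and 201 CPM with OGN (log2 difference 0.64 ± 0.10, SE, adjusted p = 0.00913).

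Among the genes lower with OGN, Cxcl12 had the smallest p. It encodes the chemokine that retains leukocytes and progenitor cells through CXCR4. Its level was 100, 118, 141 and 172 CPM with SFs and 55, 48.4, 68.2 and 56.6 CPM with OGN in mice 1 to 4 (log2 difference -1.19 ± 0.12, SE, adjusted p = 0.000283). The immediate-early transcription factor Egr1 was at 84.1, 92.7, 71.9 and 74.2 CPM with SFs and at 46.9, 63, 36.9 and 32.6 CPM with OGN (log2 difference -0.89 ± 0.12, SE, adjusted p = 0.00369). Neither gene's groups overlapped. Both were more abundant in the fibroblast fraction of the SF-treated cultures, where the mean was 586 CPM for Cxcl12 and 314 CPM for Egr1.

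Genes of enzymes and surface proteins were also among the 37. Aox3, an aldehyde oxidase, was at 215, 193, 192 and 233 CPM with SFs and at 131, 128, 121 and 122 CPM with OGN (log2 difference -0.73 ± 0.09, SE, adjusted p = 0.00166). Ces1g, a carboxylesterase, was at 56.8, 34.6, 34.1 and 55.7 CPM with SFs and at 13.4, 16.8, 17.1 and 22.6 CPM with OGN (log2 difference -1.37 ± 0.18, SE, adjusted p = 0.00369). Ces1g belongs to a cluster of near-identical carboxylesterase genes among which reads can be split, so its value carries that uncertainty. It was the only gene called among 23 of xenobiotic and aldehyde metabolism, of which 10 were lower and 3 higher at an unadjusted p under 0.05 (median log2 difference -0.20). That list does not hold Aox3, the aldehyde oxidase gene called lower above. The epoxide hydrolase Ephx1 (-0.37 ± 0.10) and the alcohol dehydrogenase Adh7 (-0.46 ± 0.13) had adjusted p of 0.142 and 0.159 (SE). Hc, which encodes complement component C5, fell from 57.9 ± 15 to 29 ± 10.7 CPM between SFs and OGN (SD, n = 4, log2 difference -1.01 ± 0.17, SE, adjusted p = 0.0151), the only call among 10 complement genes. The peptidase genes Mme (neprilysin) and Dpp4 were lower by 0.86 ± 0.15 and 0.72 ± 0.15 on the log2 scale. The endocytic receptor gene Lrp2, the potassium channel gene Kcnj15, the acidic mammalian chitinase gene Chia1, Lgi3, Cckar, Soat1, Samd9l and Ndnf were lower as well, with log2 differences between -0.91 (Chia1) and -0.46 (Soat1). In Aox3, Ces1g, Ndnf, Kcnj15 and Chia1 all 4 OGN-treated libraries lay below all SF-treated ones, whereas in Lrp2 and Cckar the groups overlapped.

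Several matrix genes were lower with OGN. Of 22 collagens, laminins and matrix glycoproteins tested, 5 (Col6a1, Col5a2, Col3a1, Fbn1 and Col6a2) were lower and none was higher, 19 had a negative estimate, and the median was -0.29. Col6a1, a chain of the microfibrillar collagen VI, was at 110, 155, 127 and 147 CPM with SFs and at 77.6, 63.1, 81.3 and 84.2 CPM with OGN (log2 difference -0.79 ± 0.12, SE, adjusted p = 0.00845). The fibrillar collagen gene Col3a1 was at 310, 391, 355 and 425 CPM with SFs and at 193, 181, 242 and 332 CPM with OGN, with overlap between mouse 4 under OGN and mouse 1 under SFs (log2 difference -0.67 ± 0.11, SE, adjusted p = 0.0117). Col5a2, Col6a2 and the microfibril gene Fbn1 were lower by 0.61, 0.92 and 0.84 on the log2 scale. Among 15 metalloproteinases and their inhibitors, Timp3, a matrix-bound inhibitor, and the gelatinase gene Mmp2 were lower. Timp3 was at 212, 240, 277 and 297 CPM with SFs and at 137, 148, 202 and 158 CPM with OGN (log2 difference -0.67 ± 0.09, SE, adjusted p = 0.00369), and Mmp2 had a log2 difference of -0.44 ± 0.09 (SE, adjusted p = 0.0489). The water channel gene Aqp1 was at 32.5, 45.2, 34.6 and 32.8 CPM with SFs and at 11.1, 11.7, 19.8 and 15.6 CPM with OGN (log2 difference -1.31 ± 0.19, SE, adjusted p = 0.00713). The secreted Wnt antagonists Dkk3 and Sfrp1, the matrix protein gene Sned1, Angptl2, the guidance genes Sema5a, Nrp1 and Dpysl3, Exoc4, Msrb3, Entpd1, Serpinb9b and Gask1b were also among the 37. Without mouse 1, 2 or 3, 1 of the 22 matrix genes was called, and without mouse 4, 5 were.

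**Figure D3:**
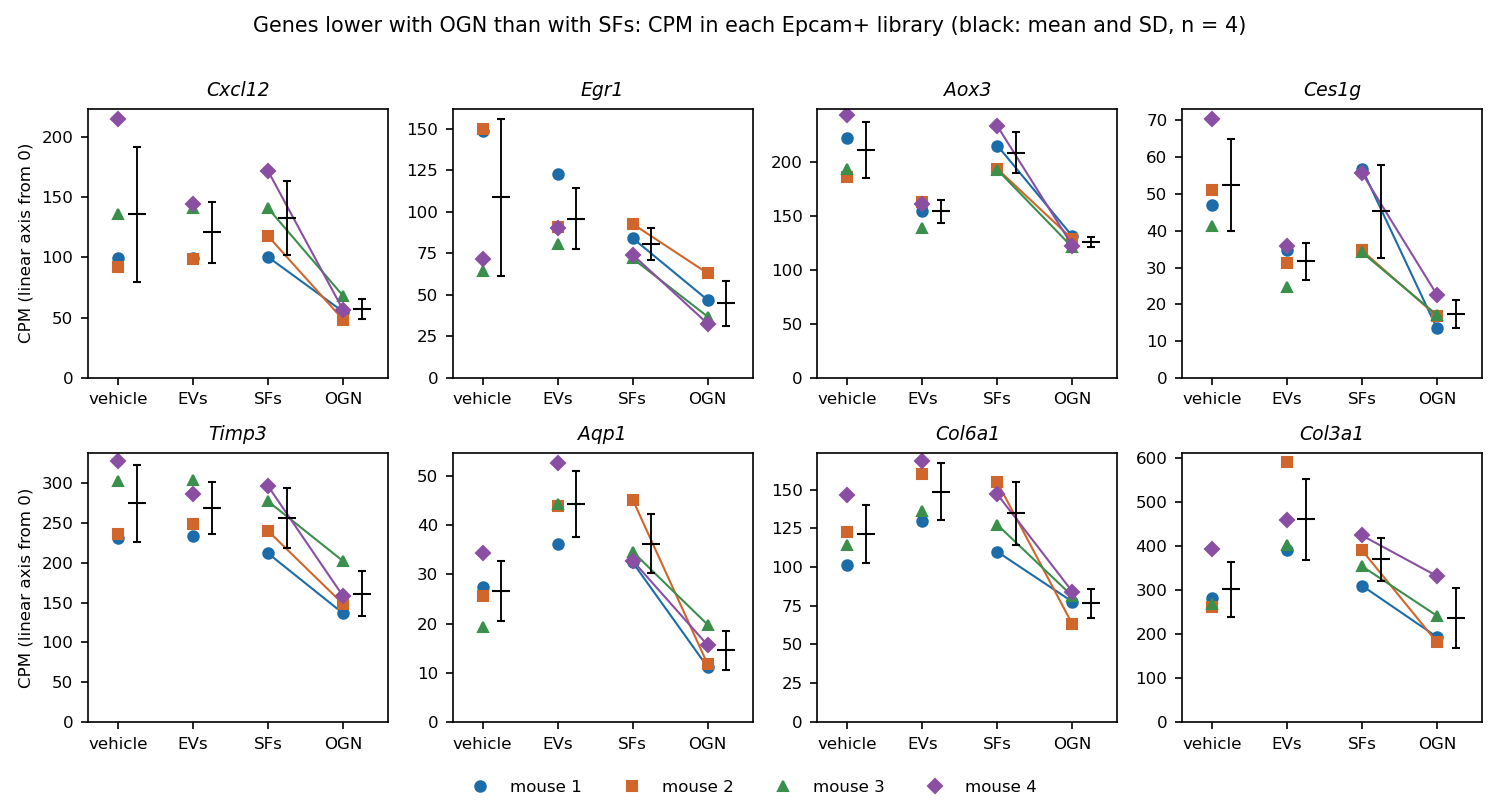
CPM (linear axis from 0) of 8 genes lower with OGN than with SFs in the Epcam+ libraries of 4 mice, by treatment; symbols mark the mouse, lines join the SF-treated and the OGN-treated library of a mouse, and black bars are mean and SD. The 4 OGN-treated libraries of Cxcl12 lie between 48.4 and 68.2 CPM and the SF-treated ones between 100 and 172.

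The summed level of the study's fibroblast signature in the Epcam+ libraries moved in the same direction as these genes. The summed CPM of the fibroblast signature was lower with OGN than with SFs in all 4 mice, and 3 of its 9 tested genes (Col6a1, Col6a2 and Mmp2) were called lower with 1 (Dcn) higher, with a median log2 difference of -0.42. This list was chosen by the study and shares genes with the matrix list. In the CCL206 cells Col6a1 and Col6a2 were also called lower with OGN (log2 differences -0.29 and -0.39). Dcn was called higher there (1.07) and Mmp2 was not called (-0.12). In the CCL206 libraries the sum was between 11591 and 13135 CPM with SFs and between 11936 and 12921 with OGN. In the Epcam+ libraries it was between 2253 and 3163 CPM with vehicle and between 3162 and 3748 with EVs. The Epcam+ sum by itself does not separate the amount of fibroblast RNA from changes of these genes within fibroblasts, and neither was tested. With mouse 3 left out, none of the 9 genes was called in Epcam+ cells. Of the 37 genes lower with OGN, 23 had a higher mean CPM in the SF-treated CCL206 libraries than in the SF-treated Epcam+ libraries, as did 12 of the 40 genes higher with OGN and 48.4% of all genes tested. The part of fibroblast RNA in the lower levels was not tested. Ogn itself, whose human protein was added and adds no mouse RNA, had 9.3 ± 2.48 CPM with SFs and 4.39 ± 1.61 with OGN (SD, n = 4, log2 difference -1.11 ± 0.33, SE), which did not pass the threshold (adjusted p = 0.213), and 33.9 CPM in the SF-treated CCL206 libraries.

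Few genes of alveolar identity were called. None of the 10 genes of the AT2 signature was called in the main edgeR test, and DESeq2 called 2 lower. With 12 or 16 Epcam+ libraries in the edgeR model 2 were called lower, and without mouse 4 and in some other edgeR settings 1 was. In the main test 2 had an unadjusted p under 0.05 in the higher and 3 in the lower direction, and the median log2 difference was -0.04. The surfactant protein genes Sftpc, Sftpa1 and Sftpb had log2 differences of -0.44 ± 0.09, 0.22 ± 0.09 and -0.02 ± 0.10 (SE, adjusted p = 0.052, 0.383 and 0.961). Sftpc lay at 5129 ± 609 CPM with SFs and 3785 ± 296 with OGN (SD, n = 4), without overlap and just short of the threshold. Of 16 genes of lamellar bodies and AT2 lipid metabolism, Lyz1 and the fatty acid carrier gene Fabp5 were higher. Of 11 AT1 markers, the caveolin gene Cav1 was lower, at 96.1 ± 17.1 CPM with SFs and 69.3 ± 13.5 with OGN (SD, n = 4, log2 difference -0.48 ± 0.10, SE, adjusted p = 0.0464), and it was more abundant in the SF-treated CCL206 libraries (236 CPM). Emp2, Lmo7 and Gprc5a, which the study names for AT1 cells, had log2 differences of 0.02 ± 0.08, -0.06 ± 0.08 and -0.01 ± 0.09 (SE, adjusted p = 0.95, 0.826 and 0.975). Of 16 genes known from the transitional state between AT2 and AT1 cells, 15 had a higher estimate with OGN and Ndrg1 was called (median 0.25). Cldn4, a claudin of that state, had 172 ± 21.8 and 225 ± 21.8 CPM (SD, n = 4, log2 difference 0.40 ± 0.11, SE, adjusted p = 0.142). None of the 7 basal, 5 club and 5 ciliated cell markers tested was called in the main edgeR test or by DESeq2, with 0, 3 and 0 at an unadjusted p under 0.05. Without mouse 4, edgeR called 1 club cell marker lower. The club cell gene Scgb1a1 had a log2 difference of -0.25 ± 0.09 and the basal gene Krt15 of -0.23 ± 0.11 (SE, adjusted p = 0.32 and 0.464).

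No gene of proliferation, lipid synthesis or the p53 response was called in the main edgeR test, and DESeq2 called 0, 1 and 1 of the genes in these lists. With all 16 Epcam+ libraries in the edgeR model, 0, 1 and 2 were called, all of them lower with OGN. Of 20 genes of the cell cycle and DNA replication, 16 had a higher estimate with OGN, 3 an unadjusted p under 0.05, and the median log2 difference was 0.09. Of 21 genes of sterol and fatty acid synthesis 2 were higher and 1 lower at an unadjusted p under 0.05. Of 14 p53 targets 1 was higher and 4 were lower at that level, among them the ubiquitin ligase gene Mdm2 (-0.34 ± 0.08) and the cell cycle inhibitor gene Cdkn1a (-0.30 ± 0.10, SE, adjusted p = 0.105 and 0.255). Of 20 targets of the stress factor ATF4, Slc7a11 alone was called, with a median of 0.14.

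**Figure D4:**
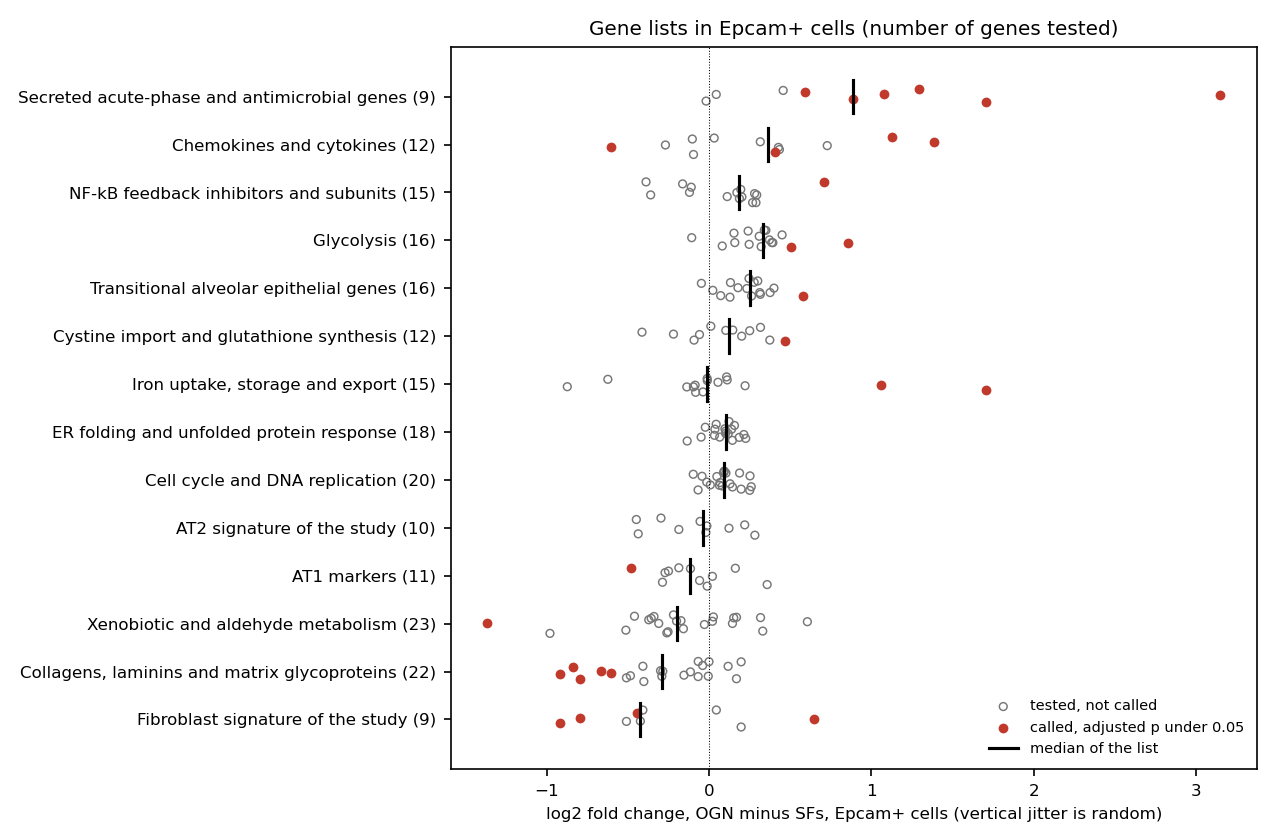
Log2 fold changes (OGN minus SFs, Epcam+ cells, horizontal axis) of the tested genes of 14 lists, 1 list per row with the number of genes tested in brackets; red points were called at an adjusted p under 0.05, open points were not, black bars are list medians, and vertical jitter is random. The acute-phase and antimicrobial list has the highest median of those drawn (0.89) and the fibroblast signature the lowest (-0.42).

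The vehicle-treated cultures, which took no part in the test, show where the agents stood relative to untreated cells. For the 40 genes higher with OGN, the mean CPM with vehicle was below that with SFs in 35, between SFs and OGN in 5 and above OGN in 0. Among all tested genes with a higher estimate under OGN, vehicle lay below SFs in 33.8%, between in 37.7% and above OGN in 28.5%. Saa3 had 0.706 ± 0.328 CPM with vehicle, 7.04 ± 2.56 with EVs, 12.7 ± 2.03 with SFs and 112 ± 12.3 with OGN (SD, n = 4 each). Lcn2 had 37.9, 115, 137 and 453 CPM, Cxcl5 had 99.2, 214, 240 and 630 CPM, and Chil1 had 203, 404, 490 and 906 CPM in the same order. In these 4 genes the mean was thus lowest with vehicle, higher with EVs and with SFs, and highest with OGN. For the 37 genes lower with OGN, vehicle lay between the agents in 23, above SFs in 14 and below OGN in 0. Among all tested genes with a lower estimate the shares were 36.9%, 34.8% and 28.3%. The split between 23 and 14 includes genes whose vehicle and SF means lay close together, such as Cxcl12 and Aox3. Cxcl12 had means of 136, 121, 133 and 57 CPM with vehicle, EVs, SFs and OGN, and Aox3 had 211, 154, 208 and 126 CPM. Col6a1, at 121, 149, 135 and 76.5 CPM, and Aqp1, at 26.6, 44.3, 36.3 and 14.6 CPM, were higher with SFs than with vehicle and lower with OGN than with vehicle in these means. No test was made between vehicle and either agent here, since the genes were chosen on libraries that such tests would share.

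The same comparison in the CCL206 fibroblasts of these cultures gave a larger number of genes. At an adjusted p under 0.05, 1282 of 11467 genes (11.2%) differed between OGN and SFs, 709 higher (6.18%) and 573 lower (5%). The biological coefficient of variation left with mouse in the model was 0.0897, against 0.141 in Epcam+ cells. CCL206 is a cell line, so its 4 libraries per agent are repeat cultures of that line. The mouse number there names the donor of the epithelial cells in the culture, and the 2 counts of genes are not like for like. Of the 77 Epcam+ genes 76 were tested in the fibroblasts, where 68 had the same direction and 54 were called in it, 33 of the genes higher and 21 of those lower with OGN. The share of all tested genes with the same direction in both populations was not computed, so the 68 have no background to be read against. Both fractions came from the same cultures and each held RNA of the other: Epcam and the AT2 signature were measured in the CCL206 libraries (AT2 sum between 1587 and 3273 CPM with SFs and between 2123 and 4228 with OGN, higher with OGN in each mouse). The part of this shared RNA in the values of either fraction was not tested. Ccn1, a matricellular protein gene, and Soat1, which esterifies cholesterol, were called in opposite directions, Ccn1 at 0.56 in Epcam+ cells and -0.34 in fibroblasts, and Soat1 at -0.46 and 0.23.

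A test of the interaction of agent and population over the 16 libraries found 191 of 11753 genes (1.63%) whose OGN to SF difference itself differed between Epcam+ cells and fibroblasts, 24 of them among the 77. In the acute-phase genes the fibroblast fraction had the larger difference: Saa3 had a log2 difference of 4.16 ± 0.10 there against 3.15 ± 0.15 in Epcam+ cells (SE, adjusted p of the interaction 0.0183), and Lcn2 had 2.83 ± 0.09 against 1.71 ± 0.12 (SE, adjusted p of the interaction 0.00364). The same order was found for Chil1, Cxcl3, Tnip3, Cd177, Cd14, Slc7a11, Il33, Ptges, Slc39a4, Slc2a1, Tm4sf1, Ltf and Gm20186. Some of these were low in the CCL206 libraries. Cd177, Ltf and Cxcl3 had means of 1.27, 4.86 and 5.21 CPM there with SFs and 7.96, 23.4 and 25.9 with OGN. In the SF-treated Epcam+ libraries their means were 39.3, 1321 and 48.9 CPM. The part of epithelial RNA in the CCL206 values of these genes was not tested. For Cxcl5, Slpi and Pglyrp1 the interaction did not pass the threshold (adjusted p = 0.0936, 0.0684 and 0.0513). Aox3, Kcnj15, Lrp2, Dpp4 and Col5a2 were lower with OGN in Epcam+ cells, with fibroblast values between -0.12 (Col5a2) and 0.39 (Dpp4) that were not called, and their interaction passed the threshold. Hypoxia-responsive Ndrg1, Cxcl12, Timp3 and Egr1 had interactions that did not pass it (adjusted p = 0.745, 0.137, 0.881 and 0.955). The number of interaction calls depended on the setting, with 33 genes without the mouse terms and 28 without mouse 3.

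**Figure D5:**
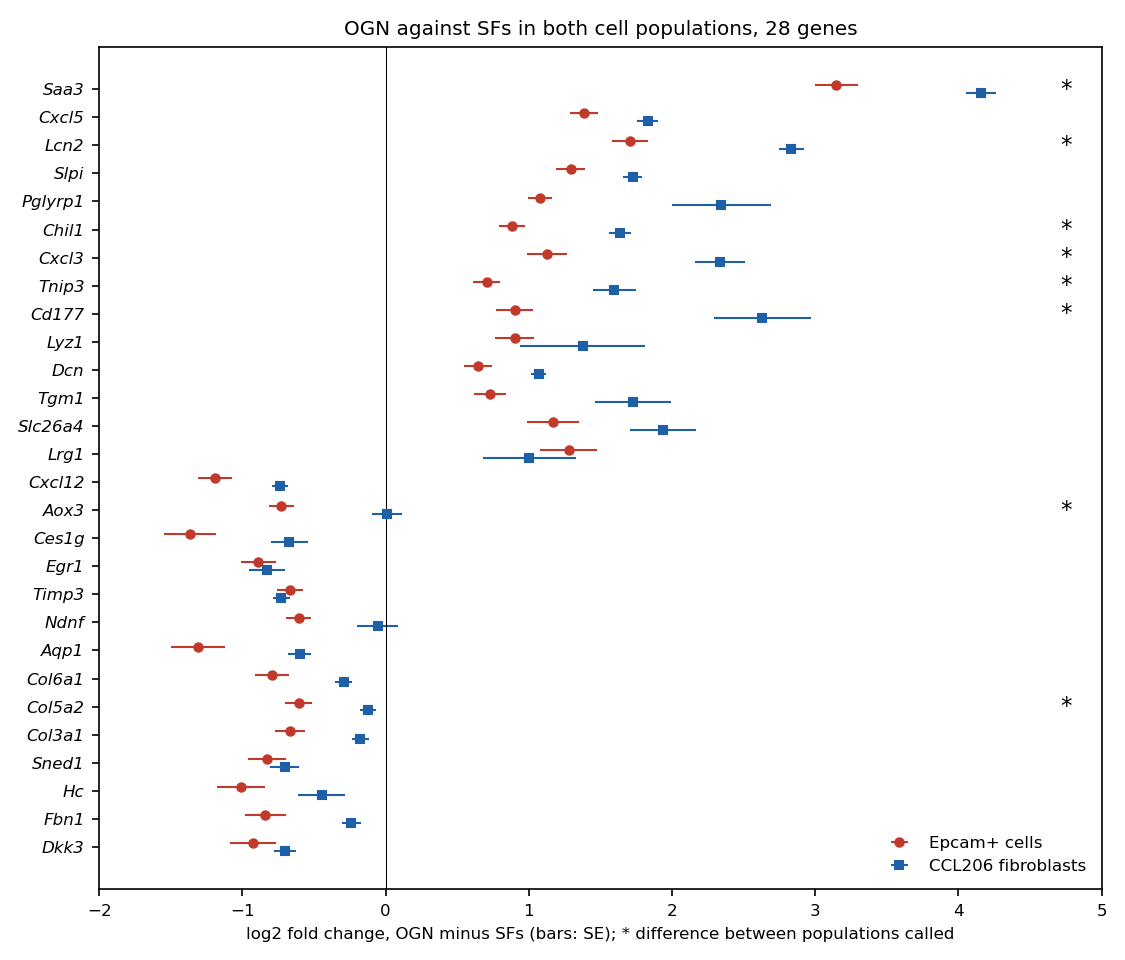
Log2 fold changes (OGN minus SFs, horizontal axis) with SE bars in Epcam+ cells (red circles) and CCL206 fibroblasts (blue squares) for the 14 genes with the smallest p in each direction in Epcam+ cells; asterisks mark genes whose difference between the populations was called. Saa3 is at 3.15 in Epcam+ cells and 4.16 in fibroblasts, and Aox3 at -0.73 and 0.01.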

How the data were processed

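RNA from re-sorted Epcam+ cells and CCL206 fibroblasts of organoid cultures was measured in 32 libraries, of which the 8 OGN-treated and SF-treated Epcam+ libraries were tested here. The authors had libraries sequenced on an Illumina NovaSeq instrument, trimmed reads with Trimmomatic (version 0.30), aligned them to the mouse genome and deposited raw counts per gene, without normalization, for 11818 genes. DESeq2 (version 1.34.0) is named in the submitters' processing notes as their analysis tool. The study's methods name GRCm38 (patch 6) and the labels name GRCm39. The aligner, counting program, annotation and use of strand are not given in the sources used here. Every gene of the table has at least 1 count in all 32 libraries, so genes silent in a group are not analysed here.

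Groups and mouse numbers were taken from the sample labels. Genes were filtered with filterByExpr, and counts were normalized by TMM and tested with edgeR (version 4.0.16, R version 4.3.3; quasi-likelihood F test, mouse and agent in the model, 8 libraries), with Benjamini-Hochberg adjustment over 11551 genes. Standard errors were obtained as the size of the log2 fold change over the square root of F. CPM were scaled by TMM over the 16 libraries of a population. The interaction was tested over 16 libraries, with mouse nested in population. Same-numbered libraries come from the same animal. The correlation of their deviations from the group means was between -0.0853 and 0.205 (mean 0.0545). For different mice it was between -0.4 and 0.31 (mean -0.00934), a range that holds all the same-mouse values. In 1 of the 4 mice the OGN-treated library correlated best with the SF-treated library of its own mouse. No pair of replicate libraries agreed within counting error (chi-square over degrees of freedom at least 4.37). Each group held 1 culture per mouse, and the totals were between 1805914 and 16299868 counts, so that precision is lowest for genes under 10 counts in the shallowest library.

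The comparison and the gene lists, which come from the study and from general knowledge, were chosen with earlier results of these data known. Genes were named by rule: in each direction the 14 called genes of smallest p that had the same sign in 4 of 4 mice, up to 4 of each list, and genes the study names, with other called genes named by symbol after their values were seen. 1 called gene is not reported here. Alternatives were the model without mouse, RLE size factors, DESeq2 (version 1.42.0), other filters, 12 or 16 Epcam+ libraries, thinned counts, a test against a 1.2-fold change and each mouse left out. Transcript lengths were taken from GENCODE M39 and promoters from RefSeq (GRCm38.p6). The scripts were tested on simulated counts. Plots were made in Python (version 3.11.15) with matplotlib (version 3.10.9).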

Additional observations from a re-analysis of the deposited data

Results flagged for a closer look

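In 9 of 206 groups of 4 libraries screened (the OGN and SF libraries of each gene named), 1 library stood apart from the other 3 by Dixon's criterion, where chance gives about 1 in 20. With OGN these were Cxcl3 in mouse 3 (78.3 CPM, others between 117 and 122), Zc3h12a in mouse 2 (39.7), Samd9l in mouse 1 (58.2), Lrp2 in mouse 1 (129, others between 71.9 and 77.7) and Slc3a2 in mouse 4 (293). With SFs they were Aqp1 in mouse 2 (45.2 CPM), Slc7a11 in mouse 2 (155), Dpysl3 in mouse 2 (97.2) and Il33 in mouse 1 (196). Mouse 2 with SFs is the shallowest library.

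The OGN to SF difference itself differed between Epcam+ cells and CCL206 fibroblasts for 29 of the genes named (interaction test of edgeR, adjusted p under 0.05), 24 of them called in Epcam+ cells. The difference, Epcam+ minus CCL206 on the log2 scale, was negative for the genes of defence and signalling: Saa3 (-1.001), Lcn2 (-1.13), Chil1 (-0.75), Cxcl3 (-1.21), Tnip3 (-0.89), Cd177 (-1.74), Ltf (-1.65), Cd14 (-0.66), Il33 (-0.68), Ptges (-0.99) and Sod2 (-0.45). It was also negative for the transporters Slc2a1 (-0.46), Slc7a11 (-0.84) and Slc39a4 (-0.86), and for Tm4sf1 (-0.44), Gm20186 (-0.86), Sftpa1 (-0.72), Sftpb (-0.70), Lmo7 (-0.43) and Cldn4 (-1.19). Among genes lower with OGN in Epcam+ cells it was negative for Aox3 (-0.73), Col5a2 (-0.48), Kcnj15 (-0.83), Soat1 (-0.69), Lrp2 (-0.88) and Dpp4 (-1.10). It was positive for Anp32b (0.45), Ccn1 (0.90) and Ly6a (0.58). Sftpa1, Sftpb, Lmo7 and Cldn4 are genes of epithelial cells, which the CCL206 fraction also held (AT2 signature between 2123 and 4228 CPM with OGN). Cd177 and Ltf were likewise far lower in the SF-treated CCL206 libraries (means 1.27 and 4.86 CPM) than in the SF-treated Epcam+ libraries (39.3 and 1321 CPM).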

How the results depend on the processing

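The count of 77 genes stayed within 1.5 times with RLE size factors (77, of which 76 shared), no filter (78, 77 shared), at least 10 counts in every library (86, 76 shared) and thinned counts (74, 56 shared). It was 38 without the replicate block (37 shared with the blocked result), 141 with DESeq2 (75 shared), 224 with all 16 and 184 with 12 Epcam+ libraries in the model, 18 against a 1.2-fold change, and between 16 and 74 with each mouse left out (15 to 59 shared). After the data were seen, each library's trend on transcript length was taken out (101 genes, 75 shared) or the log10 library total was added (106 genes, 75 shared). The paired differences followed length with a Spearman rho across genes of -0.143, 0.0482, -0.121 and -0.358 in mice 1 to 4, and the median longest transcript was 3498 nt for genes higher and 5660 nt for genes lower with OGN, against 4439 nt in all. The interaction count of 191 was 33 without the replicate block and 296 with DESeq2, 195 with RLE size factors, 196 without filter, and between 28 and 110 with each mouse left out. The cause of these changes was not tested, beyond the fewer mice or the stricter null. No called gene changed sign in the 15 alternatives, and 11 were called in all of them. Values near 0 changed sign: with each mouse left out Sftpb was between -0.078 and 0.045 (positive without mouse 1 or 2) and Gprc5a between -0.076 and 0.051 (positive without mouse 1 or 2), and Emp2 was -0.012 in thinned counts. Depth limits genes such as Vnn3, with 3 counts in the shallowest library.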

Other observations

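Mmp13, the collagenase gene, had a log2 difference of 1.01 ± 0.38 between OGN and SFs in Epcam+ cells (SE; edgeR, adjusted p = 0.325), with 3.01 ± 1.68 CPM with SFs and 6.22 ± 2.44 with OGN (SD, n = 4) and as few as 2 counts in a library. The interferon-induced gene Ifit2 had a log2 difference of -0.68 ± 0.28 (SE, adjusted p = 0.371), from 10.9 ± 3.85 to 6.6 ± 0.871 CPM. Lrrk2, a kinase gene of the AT2 signature, had 161 ± 37.6 CPM with SFs and 117 ± 20.2 with OGN (log2 difference -0.45 ± 0.12, SE, adjusted p = 0.139), and the urokinase receptor gene Plaur had 121 ± 8.34 and 158 ± 36 CPM (log2 difference 0.38 ± 0.11, SE, adjusted p = 0.221). None of these passed the threshold.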
